A study of Mus musculus with 16 samples.

Results

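Type I interferon response genes were followed in mouse ventricle as a set of 39 named genes, matched by symbol from a list of names to the 24421 entries of the count table. All 39 were found, and 38 had counts high enough to be tested among 13522 genes. The exception was Oas3. The libraries came from 4 groups of C57BL/6N male mice, each of 4 libraries: JP2CR after transverse aortic constriction (JP2CR TAC), JP2CR after a sham operation (JP2CR sham), wildtype after the constriction (WT TAC) and wildtype after sham surgery (WT sham). JP2CR mice are homozygous for a knock-in allele of Jph2, the gene of junctophilin-2, from which a short stretch of codons is deleted to make the protein resistant to calpain, and they carry the allele in every cell. Surgery took place at 9 to 10 weeks of age and polyadenylated RNA was taken from the ventricles 5 weeks later. The constriction is a band around the aortic arch that makes the left ventricle pump against a raised pressure.

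Type I interferons bind a receptor of the chains Ifnar1 and Ifnar2, whose kinases activate transcription factors. Stat2 and Irf9 are parts of the factor that binds the interferon-stimulated response element, a repeat of GAAA spaced by 2 bases, in front of the response genes. The products of these genes sense foreign nucleic acid, block viral replication, attach the ubiquitin-like protein Isg15 to other proteins, and, through Irf7, raise the interferon genes again. In the heart the response is known from viral myocarditis and from the reaction of macrophages to nucleic acid of injured cells.

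Library totals ran over 9966782 to 16609732 counts, so that 3 counts corresponded to between 0.185 and 0.314 CPM, the count scaled to the library total after TMM scaling. The libraries differ in ways that touch the results. Xist, which is expressed in female cells, was at 189 CPM in JP2CR sham 3, 196 CPM in JP2CR sham 4 and 141 CPM in JP2CR TAC 4, and at no more than 0.266 CPM in the other 13 libraries, although the mice are given as male. The 4 Y-linked genes counted (Ddx3y, Uty, Kdm5d and Eif2s3y) were at 0 in JP2CR sham 3 and 4, while JP2CR TAC 4 held counts of Xist and of all 4 (Ddx3y at 54.8 CPM). Libraries JP2CR TAC 3 and WT TAC 3 lay between libraries 1 and 2 of their groups for 98% and 98.4% of the genes that set those libraries apart, and results are also given without these 2 intermediate libraries. The same share was 89.4% for WT sham 3, 82.9% for WT TAC 4 and 81.2% for WT sham 4, and ran over 21.2% to 67.8% for the libraries 3 and 4 that remain. Results are further given without the 3 libraries with Xist, which leaves libraries 1 and 2 in JP2CR sham and 1 to 3 in JP2CR TAC. Leaving out all 5 libraries in doubt keeps libraries 1 and 2 in each JP2CR group. Calls gained or lost in these fits rest on fewer libraries and are not directly comparable with the main fits. Markers of atrium and fat differed widely between libraries of one group and are given beside the members they bear on. The deletion in Jph2 is too short to be checked from counts per gene.

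Promoters are shown first because the response is defined by a sequence. RefSeq windows of 300 bases (GRCm38.p6, from 250 bases before the start to 50 after it) were held for 29 of the 39 members, and none were matched for Mx1, Mx2, Oas2, Dhx58, Usp18, Parp9, Parp14, Rtp4, Zbp1 and Ifi27. The letters GAAANNGAAA or, on the other strand, TTTCNNTTTC were found in 13 of these 29 members (44.8%), against 1079 of 27025 genes (3.99%) with such a window. The 5 stretches below come from members with a match, and are written on the strand of the gene with each match inside the stretch in capitals. They lie at chr4:156200854-156200913 on the minus strand (Isg15), chr19:34640769-34640828 on the plus strand (Ifit1), chr19:34583359-34583423 on the plus strand (Ifit3), chr12:26456543-26456592 on the minus strand (Rsad2) and chr1:174031856-174031905 on the minus strand (Ifi205).
Isg15: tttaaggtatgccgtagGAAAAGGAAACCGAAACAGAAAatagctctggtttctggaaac
Ifit1: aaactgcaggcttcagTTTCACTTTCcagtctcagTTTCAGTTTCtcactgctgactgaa
Ifit3: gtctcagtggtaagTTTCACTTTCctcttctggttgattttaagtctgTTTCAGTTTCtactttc
Rsad2: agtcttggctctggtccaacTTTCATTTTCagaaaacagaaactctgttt
Ifi205: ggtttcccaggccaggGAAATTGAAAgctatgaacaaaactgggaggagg
The run of capitals in Isg15 holds 3 matches that overlap one another, and Ifit1 and Ifit3 hold 2 separate ones each. Ifi205 has a further match in its window, at position 24 from the start, that lies outside the stretch shown. Of the members with a window, the letters were present in 7 of 13 that were higher in WT TAC, in the 1 that was lower (Ifi205) and in 4 of 14 that were not called there. Ifit2, Irf7 and Samd9l, which were called higher in both genotypes, had no match in their windows. A match is a run of letters and not a measured binding site.

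Levels of the members, as mean CPM per kilobase of annotated exons over the 16 libraries, differed widely. Ifi27, which encodes a small membrane protein induced by interferon alpha, was highest at 29.6 CPM per kb, ahead of Bst2 (tetherin, which holds budding virus at the cell surface) at 24.9, Ifi35 at 12 and the ubiquitin ligase Trim25 at 10.8. The GTPases Mx2 and Mx1 at 0.735 and 0.367, the Z-nucleic acid sensor Zbp1 at 0.563 and the oligoadenylate synthetase Oas3 at 0.0708 CPM per kb were at the low end. A high level did not go with a large response to surgery in the members at the ends. Mx1, the lowest member tested, had the largest fitted change, and Bst2 near the top had none that was called. A relation of level and change over all members was not tested.

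**Figure D1:**
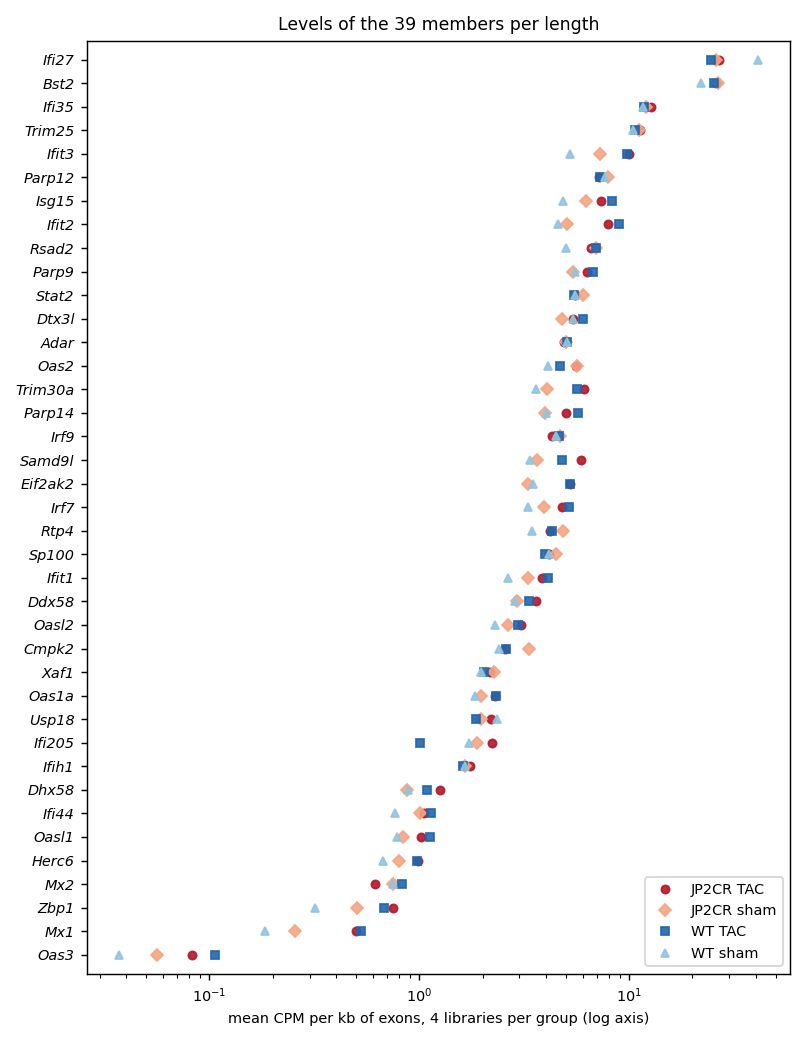
Mean level of each of the 39 members in CPM per kb of exons (log axis) in JP2CR TAC, JP2CR sham, WT TAC and WT sham, 4 libraries each, ordered by the mean over all 16. Ifi27 stands apart in WT sham (24.5 CPM per kb in WT TAC, against 41.2 in WT sham), and Ifi205 stands apart in WT TAC (1.0 CPM per kb, against 1.72 in WT sham).

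After TAC 17 members rose and 2 fell in wildtype ventricles, and 10 rose in JP2CR ventricles. In WT TAC over WT sham 17 of 38 members were called higher (44.7%, where 21.1% of all genes were higher) and 2 lower (5.26%, where 20.8% of all genes were lower). In JP2CR TAC over JP2CR sham 10 of 38 were called higher (26.3%, where 20.7% of all genes were higher) and 0 lower (20.7% of all genes were lower), and the share higher lies near that of all genes. A call is an adjusted p under 0.05 in edgeR's quasi-likelihood test, with Benjamini-Hochberg adjustment over all genes tested. For the 0 lower calls in JP2CR TAC, no member was called lower by DESeq2 or limma voom either, and 14 of 38 members had an unadjusted p under 0.05 in either direction (49% of all genes). The median log2 change of the members was 0.29 in WT TAC and 0.19 in JP2CR TAC, beside -0.00 for all genes in both. The groups did not overlap for 20 members in WT TAC (42% of all genes) and 9 in JP2CR TAC (34.1% of all genes). Both comparisons were also counted without the libraries in doubt. Without the 3 libraries with Xist, 19 members were higher and 2 lower of 39 tested in WT TAC (22.8% and 23% of all genes), and 10 and 0 in JP2CR TAC (18.5% and 17.4% of all genes). Without the intermediate libraries these counts were 16 and 2 in WT TAC (18.1% and 17.7% of all genes), and 9 and 0 in JP2CR TAC (17.1% and 17% of all genes). The authors' deposited table called 17 members higher and 2 lower in WT TAC, and 9 higher and 0 lower in JP2CR TAC. That the number of members called was larger in wildtype does not show that the response differed between genotypes, which is tested further down.

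**Figure D2:**
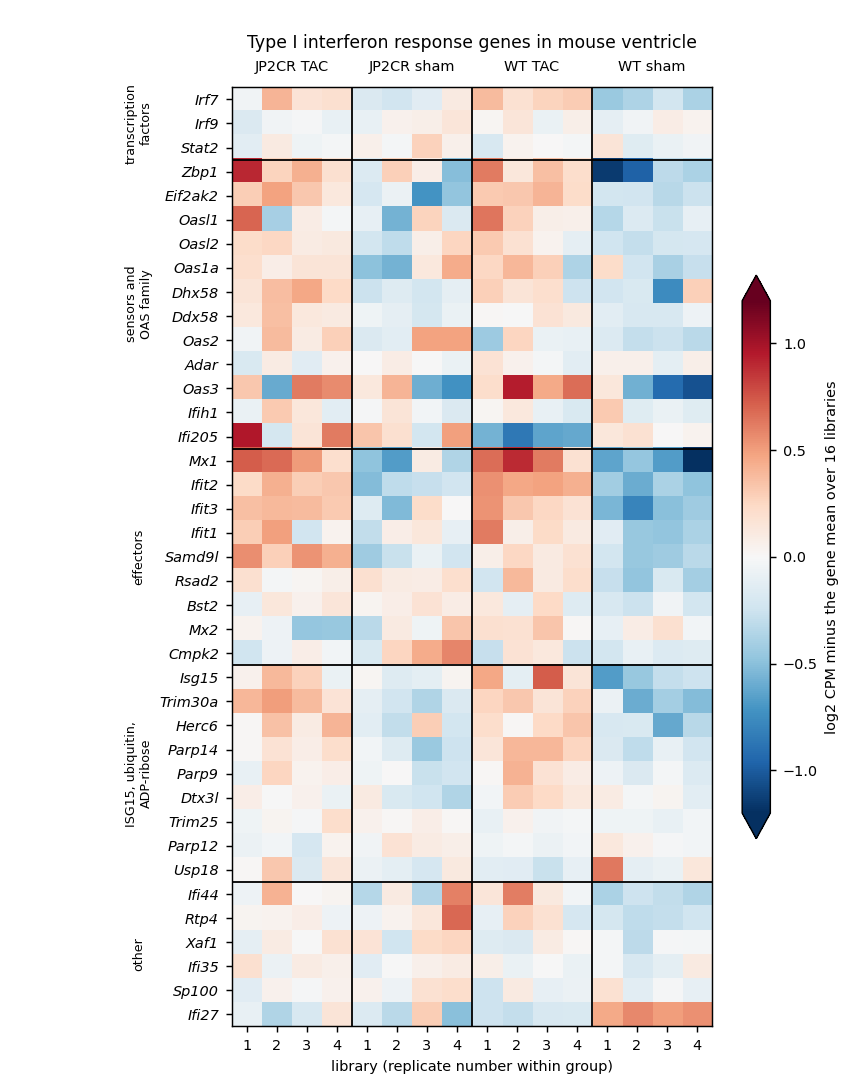
Log2 CPM of each member minus its own mean over the 16 libraries, with libraries 1 to 4 of JP2CR TAC, JP2CR sham, WT TAC and WT sham in columns and members grouped by role in rows. Red is above and blue below the mean of the gene. WT sham is below the mean for most rows, while Ifi27 and Ifi205 are above it in all 4 WT sham libraries.

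Counted by library, 24 to 30 of the 39 members were above their own 16-library mean in JP2CR TAC, 11 to 21 in JP2CR sham, 21 to 30 in WT TAC and 5 to 11 in WT sham. By this count the sham groups were not level, and JP2CR sham lay between WT sham and the TAC groups, touching WT sham and WT TAC at its ends. The counts were 11 and 16 in JP2CR sham 1 and 2, and 21 in each of JP2CR sham 3 and 4, the sham libraries with Xist. Summed over the members, the level was 770 ± 24.0 CPM in JP2CR TAC and 701 ± 21.0 in JP2CR sham, and 763 ± 27.6 in WT TAC and 669 ± 20.3 in WT sham (SD, n = 4 each).

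Most markers of macrophages, which both make and answer interferon, were also higher after TAC. Of 12 macrophage markers 9 were higher and 0 lower in JP2CR TAC (20.7% and 20.7% of all genes). In WT TAC 9 were higher and 1 lower (21.1% and 20.8% of all genes). Summed over the 12 macrophage markers, the level ran over 528 to 616 CPM in JP2CR TAC and 365 to 449 in JP2CR sham. It ran over 466 to 516 CPM in WT TAC and 356 to 393 in WT sham. In JP2CR TAC over WT TAC the median log2 difference was 0.20 for these markers and 0.01 for the members. Of 7 cardiomyocyte markers 5 were lower in each TAC comparison, and of 8 endothelial markers 2 were lower in JP2CR TAC and 0 were called in WT TAC. Of 6 fibroblast markers 3 were lower in JP2CR TAC and 2 in WT TAC. Of 5 B and plasma cell markers tested, 4 were higher in JP2CR TAC, and 0 were higher and 1 lower in WT TAC. The sum of all 6 listed was at 82.0, 9.44, 40.2 and 8.29 CPM in JP2CR TAC, against 4.69 to 7.11 CPM in JP2CR sham, and at 5.31 to 12.5 CPM in WT TAC, against 7.89 to 9.04 CPM in WT sham. JP2CR TAC 1 and 3 thus stood far above the other libraries. Of 8 markers of T and NK cells 1 was tested, and it was higher in JP2CR TAC and not called in WT TAC. Of 6 neutrophil markers 3 were tested, of which 3 were higher in JP2CR TAC and 2 in WT TAC. For plasmacytoid dendritic cells, known for very high interferon output, Siglech, which defines them, was at most 0.621 CPM in any library and Klk1 had 2 counts in all 16 libraries. Of their 6 markers 2 were tested, and in each TAC comparison Pacsin1 was higher (2.04 ± 0.33 in JP2CR TAC and 2.43 ± 0.32 in WT TAC) and Cox6a2 lower (-0.42 ± 0.08 and -0.33 ± 0.08 in the same comparisons). Cox6a2, which striated muscle also expresses, made up nearly all of the summed level of the list. In whole ventricle, more cells of a type and more RNA per cell cannot be told apart, and the part of any of these markers in the members' changes was not tested.

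Among the 9 antiviral effectors 4 were called higher in JP2CR TAC (20.7% of all genes) and 6 in WT TAC (21.1% of all genes). The Ifit genes, which bind viral RNA at its end and hold back its translation, lie together on chromosome 19 in the order Ifit2 (chr19:34550694-34576419), Ifit3 (chr19:34583531-34588731) and Ifit1 (chr19:34640871-34650009; GRCm38, GENCODE annotation). Ifit2 was at 29.3, 33.6, 30.7 and 31.4 CPM in JP2CR TAC, against 17.4, 20.1, 20.7 and 21.3 CPM in JP2CR sham, and at 36.6, 34.6, 34.9 and 33.6 CPM in WT TAC, against 18.7, 16.5, 19.1 and 17.9 CPM in WT sham. Every TAC library stood above every sham library of either genotype, and the JP2CR TAC libraries were all below those of WT TAC, the closest pair by less than the rounding. The change was 0.65 ± 0.07 in JP2CR TAC (log2 fold change ± SE, edgeR adjusted p = 1.66e-06) and 0.96 ± 0.07 in WT TAC (adjusted p = 1.82e-08), the smallest p of any member in both. Ifit3 was at 17.4, 17.7, 17.7 and 16.9 CPM in JP2CR TAC, against 12.1, 9.33, 15.8 and 13.6 CPM in JP2CR sham, and at 19.8, 17, 16.1 and 15.3 CPM in WT TAC, against 9.23, 7.76, 9.53 and 10.0 CPM in WT sham. It rose by 0.45 ± 0.13 in JP2CR TAC (edgeR adjusted p = 0.00874) and by 0.90 ± 0.13 in WT TAC (adjusted p = 2.55e-05), with no overlap in either. Without the 3 libraries with Xist the change in JP2CR TAC was 0.71 (adjusted p = 0.000735). The JP2CR sham libraries spread the most, and the TAC groups ended at nearly the same level. Ifit1 rose by 0.64 ± 0.16 in WT TAC (edgeR adjusted p = 0.00367), at 9.43 to 13.9 CPM in WT TAC and 6.43 to 8.14 in WT sham, and its JP2CR groups overlapped (7.65 to 12.7 CPM in JP2CR TAC, 7.27 to 9.87 in JP2CR sham). Ifit1 and Ifit3 have close paralogs, and how the authors' counting shared reads among them is not given in the sources used here.

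Mx1 encodes a dynamin-like GTPase that blocks influenza and related viruses in mice with an intact allele, and C57BL/6 mice are known to carry a defective one. It was at 2.2, 2.1, 1.85 and 1.47 CPM in JP2CR TAC, against 0.856, 0.732, 1.36 and 0.941 CPM in JP2CR sham. In wildtype it was at 2.09, 2.46, 2.01 and 1.45 CPM in WT TAC, against 0.755, 0.869, 0.733 and 0.416 CPM in WT sham. The groups did not overlap in either genotype, and the changes were 0.92 ± 0.26 in JP2CR TAC (edgeR adjusted p = 0.00818) and 1.52 ± 0.27 in WT TAC (adjusted p = 0.000193). These were the largest folds of any member tested in both comparisons, at one of the lowest levels. The change in JP2CR TAC was 1.34 without the 3 libraries with Xist (adjusted p = 0.00542) and 1.41 without all 5 libraries in doubt (0.0152). Samd9l, a growth-restricting antiviral factor, was at 34.4, 28.6, 34.0 and 31.4 CPM in JP2CR TAC, against 17.3, 19.4, 22.1 and 19.9 CPM in JP2CR sham, and at 24.6, 27.7, 25.2 and 26.6 CPM in WT TAC, against 20.1, 17, 17.3 and 18.6 CPM in WT sham. It rose by 0.70 ± 0.08 in JP2CR TAC (edgeR adjusted p = 3.74e-06) and by 0.51 ± 0.08 in WT TAC (adjusted p = 8.12e-05). Samd9l was thus the effector whose fitted change was larger in JP2CR, and JP2CR TAC held its 4 highest libraries.

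Rsad2, which encodes viperin, an enzyme that makes a chain-terminating nucleotide, behaved differently. It was at 31.2, 26.9, 27.7 and 28.7 CPM in JP2CR TAC, against 31.1, 29.2, 29.0 and 31.4 CPM in JP2CR sham, and at 23.2, 35.7, 29.3 and 31.6 CPM in WT TAC, against 22.5, 19.6, 24.0 and 20.5 CPM in WT sham. The JP2CR sham libraries were already at the TAC level, and the wildtype groups overlapped through WT TAC 1. The change was called in WT TAC (0.48 ± 0.10, edgeR adjusted p = 0.00112) and not in JP2CR TAC (-0.07 ± 0.10, adjusted p = 0.591). Cmpk2, a mitochondrial nucleotide kinase, starts 12752 bases from Rsad2 on the opposite strand of chromosome 12 and had its highest values in JP2CR sham (9.43 to 11.8 CPM in JP2CR TAC and 9.77 to 16.8 in JP2CR sham, and 9.14 to 12.6 in WT TAC and 9.57 to 10.4 in WT sham). Its change in JP2CR TAC of -0.36 ± 0.14 was near the threshold (edgeR adjusted p = 0.0532). It was called lower without JP2CR sham 1 (adjusted p = 0.00498), without WT TAC 1 (0.0490) and without WT TAC 2 (0.0490). Bst2 was not called in JP2CR TAC (-0.04 ± 0.09) or WT TAC (0.21 ± 0.09, edgeR adjusted p = 0.0605). In WT TAC it passed the threshold without WT sham 3 (adjusted p = 0.0414), WT TAC 2 (0.0345) or WT TAC 4 (0.0221). Mx2, annotated as a polymorphic pseudogene, was called in neither (-0.26 ± 0.18 in JP2CR TAC and 0.15 ± 0.17 in WT TAC).

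**Figure D3:**
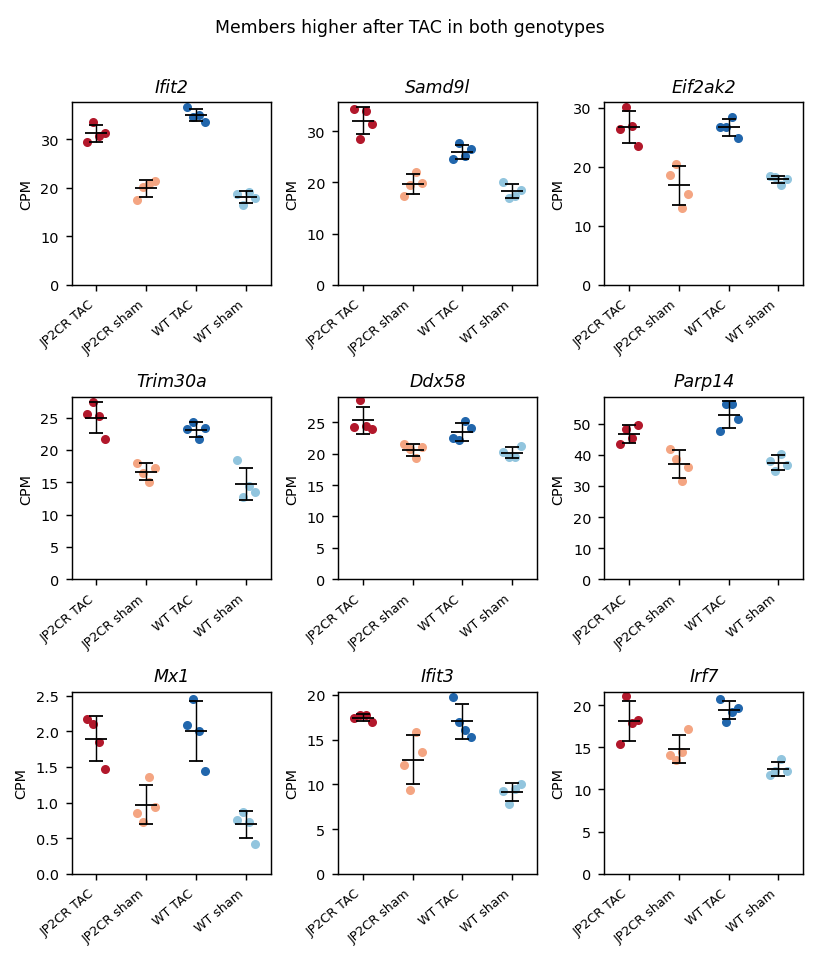
CPM of the 9 members called higher after TAC in both genotypes, by library (points), with the group mean and SD (bars), in JP2CR TAC, JP2CR sham, WT TAC and WT sham, 4 libraries each. The TAC libraries lie above the sham libraries of the same genotype in each panel, except that Irf7 overlaps in JP2CR, where JP2CR TAC 1 at 15.4 CPM is below JP2CR sham 4 at 17.2 CPM.

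Sensors of nucleic acid made up 12 members, of which 11 were tested. In JP2CR TAC 3 were called higher (20.7% of all genes). In WT TAC 4 were higher and 1 lower (21.1% and 20.8% of all genes). Eif2ak2 encodes the kinase PKR, which stops translation when it meets double-stranded RNA. It was at 26.3, 30.1, 26.9 and 23.5 CPM in JP2CR TAC, against 18.6, 20.4, 13.0 and 15.4 CPM in JP2CR sham, and at 26.7, 26.8, 28.4 and 25.0 CPM in WT TAC, against 18.4, 18.3, 16.9 and 17.9 CPM in WT sham. The 2 TAC groups reached the same mean and neither overlapped its sham group (0.67 ± 0.11 in JP2CR TAC, edgeR adjusted p = 0.000109, and 0.58 ± 0.11 in WT TAC, adjusted p = 0.000312). Without the 3 libraries with Xist the changes were 0.51 in JP2CR TAC and 0.58 in WT TAC, so the order of the genotypes was reversed. Zbp1, which binds left-handed nucleic acid and can start necroptosis, was at 3.59, 2.26, 2.55 and 2.14 CPM in JP2CR TAC, against 1.64, 2.29, 1.97 and 1.25 CPM in JP2CR sham, and at 2.94, 2.06, 2.43 and 2.2 CPM in WT TAC, against 0.755, 0.869, 1.47 and 1.39 CPM in WT sham. Its wildtype groups did not overlap and its JP2CR groups did. The change was 1.09 ± 0.26 in WT TAC (edgeR adjusted p = 0.00236), and it was not called in JP2CR TAC at 0.54 ± 0.24 (adjusted p = 0.0798).

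The cytosolic RNA helicases bind viral RNA and signal towards interferon production. Ddx58, which encodes RIG-I, was at 24.2, 28.6, 24.3 and 24.0 CPM in JP2CR TAC, against 21.5, 20.7, 19.2 and 21.0 CPM in JP2CR sham, and at 22.5, 22.2, 25.1 and 24.1 CPM in WT TAC, against 20.3, 19.5, 19.5 and 21.3 CPM in WT sham. The groups did not overlap, and it rose by 0.30 ± 0.07 in JP2CR TAC (edgeR adjusted p = 0.00259) and by 0.22 ± 0.07 in WT TAC (adjusted p = 0.0175). The call in wildtype was lost without WT sham 3 (adjusted p = 0.0512), without WT TAC 3 (0.0608) and without both intermediate libraries (0.0704). Dhx58, which encodes the helicase LGP2, was at 3.67, 4.28, 4.56 and 3.88 CPM in JP2CR TAC, against 2.71, 2.93, 2.78 and 3.03 CPM in JP2CR sham, and at 4.03, 3.65, 3.77 and 2.73 CPM in WT TAC, against 2.77, 2.86, 1.87 and 4.02 CPM in WT sham. It was the member called in JP2CR TAC (0.52 ± 0.19, edgeR adjusted p = 0.0338, no overlap) and not in WT TAC (0.29 ± 0.19, adjusted p = 0.233). Its call in JP2CR rested on single libraries, with adjusted p = 0.0712, 0.0535 and 0.0658 without JP2CR sham 1, 2 or 3, and 0.0697 and 0.0890 without JP2CR TAC 2 or 3. It was also lost without the Xist libraries (0.106) or the intermediate ones (0.104), and in WT TAC it passed the threshold without WT sham 4 (0.0420). Ifih1, which encodes MDA5, and the RNA-editing enzyme Adar stayed uncalled with changes between -0.04 and 0.08 in the 2 comparisons.

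The oligoadenylate synthetase family makes the messenger that activates RNase L, and its members stand in 2 groups on chromosome 5. Oasl2 rose by 0.35 ± 0.11 in WT TAC (edgeR adjusted p = 0.0141), at 16.1 to 21.5 CPM in WT TAC and 14.2 to 15.0 in WT sham, and the call was lost without WT TAC 1 (adjusted p = 0.0535). In JP2CR TAC it was not called at 0.21 ± 0.11 (edgeR adjusted p = 0.133), and it passed the threshold there without JP2CR sham 4 (0.0212) and without the 3 libraries with Xist (0.00449). Oasl1, Oas1a and Oas2 were called in neither, with changes of 0.26, 0.23 and -0.01 in JP2CR TAC and 0.52, 0.34 and 0.20 in WT TAC. Oasl1 passed the threshold in WT TAC without JP2CR TAC 1 (edgeR adjusted p = 0.0465), and Oas1a passed it in JP2CR TAC without the 3 libraries with Xist (0.0348). Oas3 had 8, 3, 10 and 11 counts in JP2CR TAC, against 7, 7, 4 and 2 in JP2CR sham, and 7, 15, 8 and 10 counts in WT TAC, against 6, 4, 2 and 2 in WT sham. Its wildtype groups did not overlap, and because it missed the low-count filter no fitted change is given from the main test. The near-identical copies of Oas1a may share its reads.

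Of the 9 members that work through Isg15, ubiquitin or ADP-ribose, 2 were higher in JP2CR TAC and 5 in WT TAC. The shares of all genes were 20.7% and 21.1%, and the count in JP2CR TAC lies near its share. Isg15 itself, the ubiquitin-like modifier, was at 5.09, 6.45, 5.95 and 4.61 CPM in JP2CR TAC, against 4.99, 4.39, 4.5 and 5.02 CPM in JP2CR sham, and at 6.82, 4.51, 8.21 and 5.46 CPM in WT TAC, against 3.02, 3.54, 3.99 and 4.09 CPM in WT sham. The WT TAC libraries spread the most, and the JP2CR sham libraries lay above all those of WT sham. The change was 0.76 ± 0.17 in WT TAC (edgeR adjusted p = 0.00185) and was not called in JP2CR TAC at 0.22 ± 0.17 (adjusted p = 0.321). Herc6, the main ligase of Isg15 in the mouse, rose by 0.53 ± 0.14 in WT TAC (edgeR adjusted p = 0.00674; 7.90 to 9.88 CPM, against 5.05 to 6.83 in WT sham). In JP2CR TAC it was not called at 0.28 ± 0.14 (adjusted p = 0.124), and it passed the threshold without JP2CR sham 3 (0.0145). Usp18, which removes Isg15 from proteins and restrains the interferon receptor, was called in neither (0.17 ± 0.16 in JP2CR TAC and -0.33 ± 0.16 in WT TAC, edgeR adjusted p = 0.436 and 0.103).

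Trim30a, a ubiquitin ligase that restrains inflammatory signalling, was at 25.6, 27.4, 25.3 and 21.7 CPM in JP2CR TAC, against 18, 16.5, 15.0 and 17.2 CPM in JP2CR sham, and at 23.2, 24.3, 21.6 and 23.4 CPM in WT TAC, against 18.4, 12.8, 14.5 and 13.4 CPM in WT sham. It rose without overlap in both, by 0.59 ± 0.10 in JP2CR TAC (edgeR adjusted p = 0.000191) and by 0.65 ± 0.10 in WT TAC (adjusted p = 6.16e-05). It lies in a cluster of related Trim genes whose reads may be shared. Parp14, an ADP-ribosyl transferase, was at 43.4, 48.4, 45.4 and 49.6 CPM in JP2CR TAC, against 41.9, 38.6, 31.5 and 36.0 CPM in JP2CR sham, and at 47.5, 56.4, 56.5 and 51.4 CPM in WT TAC, against 38.1, 34.6, 40.3 and 36.6 CPM in WT sham. The changes were 0.34 ± 0.08 in JP2CR TAC (edgeR adjusted p = 0.00348) and 0.50 ± 0.08 in WT TAC (adjusted p = 9.56e-05), without overlap, and in JP2CR the change was 0.18 without the 3 libraries with Xist (adjusted p = 0.123). Parp9 and its partner ligase Dtx3l overlap each other on opposite strands of chromosome 16. Parp9 rose by 0.29 ± 0.09 in WT TAC (edgeR adjusted p = 0.0167), a call lost without WT sham 2 (0.0516), WT sham 4 (0.0549) or WT TAC 2 (0.0827). It was not called in JP2CR TAC at 0.21 ± 0.09 (0.0789), and passed the threshold there without JP2CR TAC 1 (0.0404) or WT TAC 2 (0.0468). Dtx3l was at 0.17 ± 0.09 in both comparisons, uncalled, and passed the threshold in JP2CR TAC without JP2CR sham 1 (edgeR adjusted p = 0.0161). Trim25 and Parp12 were not called in either, with changes between -0.14 and 0.03, and Parp12 was called lower in JP2CR TAC without JP2CR sham 1 (0.0496) or JP2CR TAC 4 (0.0425).

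Of the 3 transcription factors Irf7 was called. Irf7, which the response induces and which then drives the interferon alpha genes, was at 15.4, 21.1, 17.8 and 18.2 CPM in JP2CR TAC, against 14.0, 13.5, 14.5 and 17.2 CPM in JP2CR sham, and at 20.7, 18.1, 19.2 and 19.7 CPM in WT TAC, against 11.7, 12.2, 13.6 and 12.2 CPM in WT sham. It rose by 0.30 ± 0.10 in JP2CR TAC with overlap (edgeR adjusted p = 0.0194) and by 0.64 ± 0.10 in WT TAC without overlap (adjusted p = 4.13e-05). The JP2CR call was lost without JP2CR sham 2 (adjusted p = 0.0559), without JP2CR TAC 2 (0.0817) and when the JP2CR groups were fitted alone (0.0624). Irf9 (-0.12 ± 0.07 in JP2CR TAC and 0.05 ± 0.07 in WT TAC) and Stat2 (-0.13 ± 0.08 and -0.01 ± 0.08 in the same comparisons) were not called.

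The other 6 members showed 0 calls in JP2CR TAC, by edgeR, DESeq2 and limma voom, and 1 higher and 1 lower call in WT TAC. Of all genes 20.7% were called higher and 20.7% lower in JP2CR TAC, and 21.1% and 20.8% in WT TAC. Ifi44 rose by 0.57 ± 0.20 in WT TAC (edgeR adjusted p = 0.0276; 5.78 to 9.16 CPM, against 4.53 to 4.97 in WT sham), a call lost without WT sham 1, 3 or 4 (adjusted p = 0.0579, 0.0521 and 0.0637) or WT TAC 2 (0.124). Rtp4, a chaperone of receptors, was at 0.32 ± 0.15 in WT TAC (edgeR adjusted p = 0.0823) and passed the threshold without WT TAC 4 (0.0455), JP2CR sham 4 (0.0244) or the 3 libraries with Xist (0.0261). Xaf1, Ifi35 and the nuclear body protein Sp100 had changes between -0.11 and 0.07 and were not called.

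**Figure D4:**
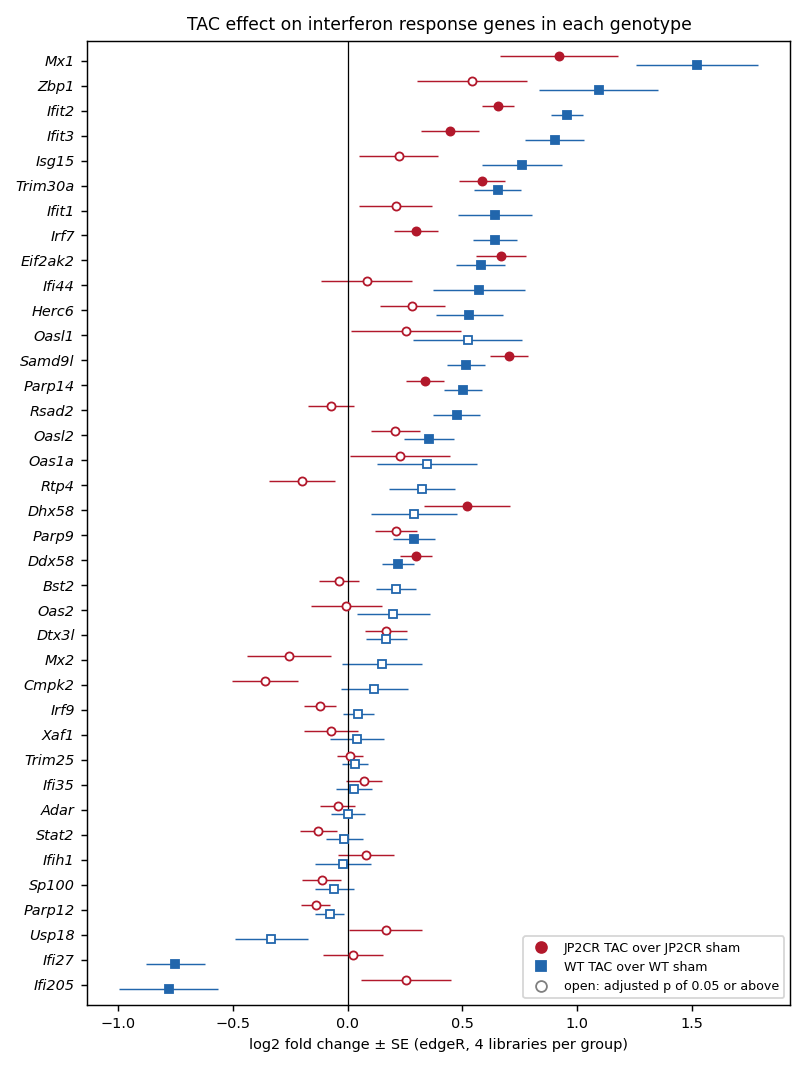
Log2 fold change ± SE of TAC over sham for the 38 tested members in JP2CR (circles) and WT (squares), with filled symbols for an edgeR adjusted p under 0.05. Most wildtype symbols lie right of the JP2CR ones, with Samd9l, Eif2ak2, Ddx58 and Dhx58 among the exceptions, and Ifi27 and Ifi205 lie left of 0 in wildtype and not in JP2CR.

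Ifi27 and Ifi205 went the other way in wildtype. Ifi27 was at 39.5, 32.8, 36.9 and 47.1 CPM in JP2CR TAC, against 37.5, 33.6, 51.9 and 29.8 CPM in JP2CR sham, and at 35.3, 34.5, 36.9 and 37.2 CPM in WT TAC, against 57.7, 63.1, 59.6 and 61.6 CPM in WT sham. All 4 WT sham libraries stood above the other 12, and the other 3 groups overlapped. It fell by 0.75 ± 0.13 in WT TAC (log2, edgeR adjusted p = 0.000142) and was at 0.02 ± 0.13 in JP2CR TAC (adjusted p = 0.907). Ifi205, of the Ifi200 family of DNA sensors, was at 13.2, 5.81, 7.49 and 10.4 CPM in JP2CR TAC, against 8.49, 7.69, 5.74 and 9.52 CPM in JP2CR sham, and at 4.49, 3.65, 4.27 and 4.34 CPM in WT TAC, against 7.38, 7.64, 6.76 and 6.93 CPM in WT sham. Here the 4 WT TAC libraries stood below the other 12. It fell by 0.78 ± 0.21 in WT TAC (log2, edgeR adjusted p = 0.00707) and was not called in JP2CR TAC at 0.25 ± 0.20 (adjusted p = 0.325). Markers of fat and atrium also differed between these groups. Summed over 8 adipocyte markers the level was 48.1, 2.02, 25.9 and 69.1 CPM in JP2CR TAC, against 15.4, 4.85, 189 and 5.65 CPM in JP2CR sham, and 0.310, 0.399, 0.335 and 5.22 CPM in WT TAC, against 18.6, 177, 102 and 129 CPM in WT sham. In every group the library with the highest adipocyte sum also had the highest Ifi27. These were JP2CR TAC 4, JP2CR sham 3, WT TAC 4 and WT sham 2. In JP2CR TAC and WT sham all libraries had the same order by adipocyte sum and by Ifi27. In JP2CR sham and WT TAC the lower libraries did not. JP2CR TAC 1 and 4, with the highest adipocyte sums of JP2CR TAC, had the highest Ifi205 of that group. For Ifi205 the order in JP2CR sham was another. JP2CR sham 3 had the lowest Ifi205 of its group (5.74 CPM), and JP2CR sham 4, with 5.65 CPM of adipocyte markers, had the highest (9.52 CPM). Across genotypes, WT sham 1 and JP2CR sham 1 had adipocyte sums of 18.6 and 15.4 CPM, with Ifi27 at 57.7 and 37.5 CPM. JP2CR sham 3, with the largest adipocyte sum (189 CPM), had Ifi27 at 51.9 CPM, below every WT sham library. The sum of 6 atrial markers was 346 to 613 CPM in JP2CR TAC and 154 to 2142 in JP2CR sham, and 67.0 to 269 in WT TAC and 1375 to 2247 in WT sham. Within JP2CR the libraries with the highest Ifi205 of their groups, JP2CR TAC 1 and JP2CR sham 4, had the lowest atrial sums of their groups (346 and 154 CPM). All 8 adipocyte and all 6 atrial markers were called lower in WT TAC (20.8% of all genes). In JP2CR TAC 0 and 3 of them were lower (20.7% of all genes). The part of these markers in the 2 genes' changes was not tested.

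The genotypes were compared directly under pressure load. In JP2CR TAC over WT TAC 1 of 38 members was called higher (0.362% of all genes) and 0 lower (0.288% of all genes), and the median log2 difference was 0.01. The member was Ifi205, with a difference of 1.15 ± 0.21 (edgeR adjusted p = 0.0218) and no overlap. The call was lost without WT TAC 2, 3 or 4 (adjusted p = 0.0832, 0.0930 and 0.0742), without JP2CR TAC 4 (0.0651) and without the intermediate libraries (0.182), and it held without the 3 libraries with Xist (1.09, adjusted p = 0.0142). Summed adipocyte markers were at 25.9 to 69.1 CPM in JP2CR TAC 1, 3 and 4 and 2.02 CPM in JP2CR TAC 2, against 0.310 to 5.22 CPM in WT TAC, and their part in the difference was not tested. Samd9l was 0.30 ± 0.08 higher in JP2CR TAC without overlap and did not pass (edgeR adjusted p = 0.0966), but it did without JP2CR sham 3 (0.0426) and without the 3 libraries with Xist (0.0471). Ifit2, Parp14 and Mx2 were lower in the fit by 0.16, 0.18 and 0.43 with unadjusted p under 0.05 and adjusted p = 0.319, 0.356 and 0.312. No member was called lower by DESeq2 or limma voom, 5 of 38 members had an unadjusted p under 0.05 in either direction (12.9% of all genes), and the groups did not overlap for 3 members (8.09% of all genes). The macrophage marker Cd163 differed by 1.07 ± 0.12 in the same direction (edgeR adjusted p = 0.000579), the one of the 12 macrophage markers that was called.

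Without pressure load, edgeR called 0 members higher (0% of all genes) and 0 lower (0.0961% of all genes) in JP2CR sham over WT sham, and 9 of 38 had an unadjusted p under 0.05 (7.97% of all genes). DESeq2 called Rsad2 higher and Ifi27 lower, and limma voom called Ifi27 lower. The fitted difference was above 0 for 28 of 38 members (51.8% of all genes), with a median of 0.12, and the groups did not overlap for 6 (4.76% of all genes). Ifi27 had the smallest p, with a difference of -0.65 ± 0.13 (edgeR adjusted p = 0.0552; 29.8 to 51.9 CPM in JP2CR sham, against 57.7 to 63.1 in WT sham). It passed the threshold without JP2CR sham 3 (-0.85, adjusted p = 0.000640), without JP2CR TAC 4 (0.0395) and without the 3 libraries with Xist (-0.77, 0.000293). The last of these fits holds just libraries 1 and 2 of JP2CR sham. Rsad2 followed at 0.48 ± 0.10 (edgeR adjusted p = 0.0768; 29.0 to 31.4 CPM in JP2CR sham, against 19.6 to 24.0 in WT sham), and passed without WT TAC 1 (0.0214) or WT TAC 2 (0.0451). Ifit3, Rtp4, Cmpk2, Oas2, Zbp1, Bst2 and Irf7 had fitted differences of 0.25 to 0.69 with unadjusted p under 0.05 and adjusted p from 0.267 to 0.503. Without the 3 libraries with Xist the differences were 0.24 for Ifit3, 0.25 for Rtp4, 0.20 for Cmpk2, 0.10 for Oas2, 0.79 for Zbp1, 0.23 for Bst2 and 0.15 for Irf7, with adjusted p from 0.378 to 0.876. For all of these except Zbp1 the highest JP2CR sham values were in libraries with Xist. These were 15.8 CPM for Ifit3 in JP2CR sham 3, 25.2 CPM for Bst2 in JP2CR sham 3, 17.2 CPM for Irf7 in JP2CR sham 4, 14.2 CPM for Rtp4 in JP2CR sham 4, 16.8 CPM for Cmpk2 in JP2CR sham 4, and 30.5 and 30.4 CPM for Oas2 in JP2CR sham 3 and 4, against 19.3 and 19.9 CPM in JP2CR sham 1 and 2.

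Whether the TAC effect itself depended on genotype was tested as an interaction, the TAC effect in JP2CR minus that in wildtype. EdgeR called 0 members higher (0.0887% of all genes) and 0 lower (0.0296% of all genes), and 10 of 38 had an unadjusted p under 0.05 (10.3% of all genes). DESeq2 called Ifi27. The fitted interaction was above 0 for 9 of 38 members (47.8% of all genes) and below 0 for 29. The median was -0.13, beside -0.01 for all genes. The interaction holds the same sham libraries as the sham comparison, where 28 of 38 members lay above 0, so these are not separate results. The smallest p belonged to Ifi27 (0.77 ± 0.18, edgeR adjusted p = 0.101), Rsad2 (-0.55 ± 0.14, 0.129) and Ifi205 (1.04 ± 0.29, 0.168). Ifi27 passed the threshold without JP2CR sham 3 (0.97, adjusted p = 0.00862) and without the 3 libraries with Xist (0.79, 0.00108), and Rsad2 passed it without WT TAC 1 (-0.65, 0.0258). Ifit2 (-0.30 ± 0.10), Rtp4 (-0.52 ± 0.20), Irf7 (-0.35 ± 0.14), Ifit3 (-0.46 ± 0.18), Cmpk2 (-0.48 ± 0.21), Usp18 (0.50 ± 0.23) and Isg15 (-0.54 ± 0.24) had unadjusted p under 0.05 and edgeR adjusted p from 0.259 to 0.456. Without the 3 libraries with Xist the same interactions were -0.21 for Ifit2, -0.26 for Rtp4, -0.25 for Irf7, -0.19 for Ifit3, -0.22 for Cmpk2, 0.50 for Usp18 and -0.45 for Isg15, with adjusted p from 0.413 to 0.687. A p that misses the threshold here does not show that the TAC effects were alike.

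**Figure D5:**
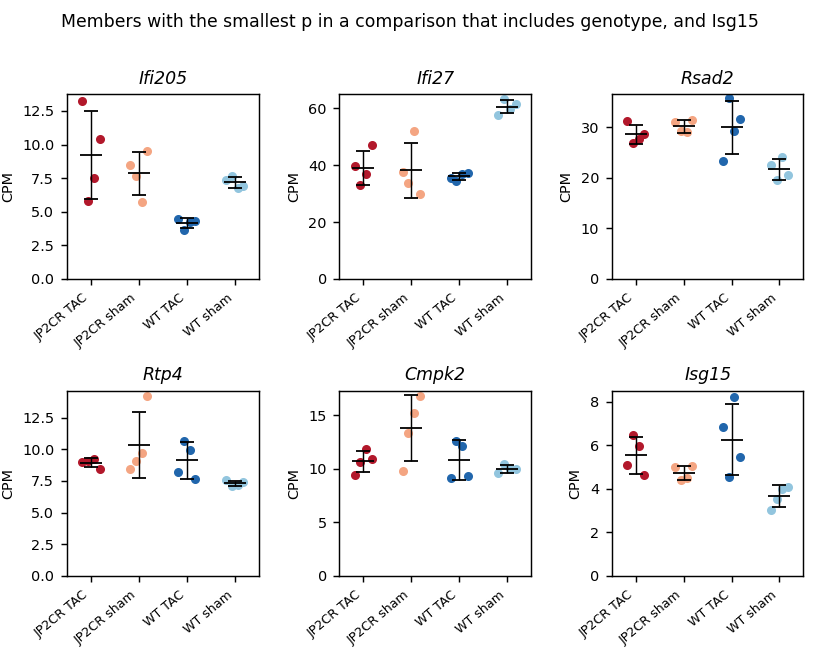
CPM by library (points) with group mean and SD (bars) in JP2CR TAC, JP2CR sham, WT TAC and WT sham, 4 libraries each. The members are Ifi205, Ifi27, Rsad2, Rtp4, Cmpk2 and Isg15, all named in comparisons that involve genotype. Samd9l, which did not overlap between the TAC groups, is not among them. WT sham stands apart for Ifi27 (60.5 ± 2.34 CPM), and WT TAC stands apart for Ifi205 (4.19 ± 0.370 CPM). Rsad2 has its lowest mean in WT sham (21.6 ± 2.0 CPM), where WT TAC 1 at 23.2 CPM lies below WT sham 3 at 24.0 CPM.

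The rest of the pathway was read from 4 further gene lists. Of the interferon genes themselves, Ifnb1 had 1 count in all 16 libraries together, Ifna7, Ifnab, Ifnz and Ifng had 2 each, and the others listed had 0, so that no ligand was measurable at this depth. Of 17 tested genes for receptors, kinases, Stat and Irf factors and their inhibitors, 5 were higher and 5 lower in JP2CR TAC. In WT TAC 5 were higher and 4 lower. The shares of all genes were 20.7% higher and 20.7% lower in JP2CR TAC, and 21.1% and 20.8% in WT TAC. Ifnar1 and the kinases Jak1 and Tyk2 were not called in any comparison, while Ifngr1, a chain of the interferon gamma receptor, rose by 0.65 ± 0.07 in JP2CR TAC and 0.41 ± 0.07 in WT TAC, and the inhibitor Socs3 by 0.59 ± 0.18 and 0.65 ± 0.19 in the same comparisons.

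Of 22 further sensors and adaptors 6 were higher and 1 lower in JP2CR TAC (20.7% and 20.7% of all genes). In WT TAC 3 were higher and 1 lower (21.1% and 20.8% of all genes). Traf3, an adaptor on the way to interferon production, rose by 0.51 ± 0.06 in JP2CR TAC (edgeR adjusted p = 5.01e-06) and by 0.58 ± 0.06 in WT TAC (adjusted p = 6.96e-07). The endosomal RNA receptors Tlr8 (1.34 ± 0.27) and Tlr7 (0.76 ± 0.17) were called in JP2CR TAC, and had values of 0.52 ± 0.29 and 0.42 ± 0.18 in WT TAC that were not called, but neither interaction passed (adjusted p = 0.500 and 0.704). Of 54 tested response genes outside the 39 members, 13 were higher and 2 lower in JP2CR TAC (20.7% and 20.7% of all genes). The share higher there lies near that of all genes. In WT TAC 19 were higher and 0 lower (21.1% and 20.8% of all genes). Slfn9, a Schlafen family gene, rose by 1.40 ± 0.22 in JP2CR TAC and 1.64 ± 0.22 in WT TAC, and the membrane protein gene Ifitm3, whose product blocks viral entry, by 0.30 ± 0.06 and 0.45 ± 0.06 in the same comparisons. Ms4a6b, a membrane protein gene of immune cells, was the one of these called between genotypes under load (0.74 ± 0.15 in JP2CR TAC over WT TAC, edgeR adjusted p = 0.0313).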

How the data were processed

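Read counts per gene symbol, whole numbers deposited by the authors and not normalized, were available for 16 libraries of polyadenylated RNA made with a stranded kit, per the labels' protocols. Tools named in the submitters' processing notes are FastQC 1.0.0, Picard 1.128, STAR 2.5.0b, Cufflinks 2.2.1, bedtools 2.17.0 and DESeq2 1.6.3, with build mm10. Which of them counted reads, with what strand setting and annotation, is not stated there, so genes that overlap or are nearly identical may share reads. The table also holds log2 fold changes and adjusted p-values deposited by the authors, quoted only as the authors' deposited table. Of the entries, 27 had date-like symbols, 4 shared a symbol and 5817 had 0 counts in every library.

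Groups came from the sample titles. The labels do not tie libraries to named animals, so p-values measure the spread between libraries. The test was edgeR 4.0.16 under R 4.3.3 (filterByExpr, TMM, a mean per group over 16 libraries, quasi-likelihood F test, Benjamini-Hochberg over 13522 genes) in 5 comparisons; the SE is the log2 fold change divided by the square root of F. CPM used TMM-scaled totals. Replicate libraries differed beyond sampling noise (chi-square per degree of freedom 1.51 to 21.6), so none was counted as a copy. In simulated data, 76.1% of 1.5-fold changes were recovered for WT TAC over WT sham and 50.7% for the interaction (67 genes each). Far fewer genes were changed there than were called in the real WT TAC comparison, and none at low levels. The rates therefore do not carry over to the members. Alternatives were DESeq2 1.42.0, limma 3.58.1 voom, other scaling factors and filters, a replicate block, fits of just the groups compared, an adjusted p under 0.01, leaving out each library, and leaving out the 3 libraries with Xist or the 2 intermediate ones; leaving out all 5 was added after the data were seen.

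The members and lists were chosen with earlier results of these data known. Members called were named with values in every library (up to 12 per TAC comparison and 6 per genotype comparison or interaction, by smallest p), and the rest by counts and ranges. Positions came from the GENCODE annotation of GRCm38 and promoters from RefSeq GRCm38.p6. A gene was taken to set libraries 1 and 2 of a group apart where its counts differed by over 4 standard deviations of counting error. Some results on single genes of the pathway lists are not reported here.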

Additional observations from a re-analysis of the deposited data

Results flagged for a closer look

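In 4 of the 156 groups of 4 libraries examined (39 members in 4 groups), 1 library stood apart from the other 3 by Dixon's test, where chance alone gives about 1 in 20. Ifih1 was at 16.9 CPM in WT sham 1, with the others at 12.2 to 12.8. Ddx58 was at 28.6 CPM in JP2CR TAC 2, with the others at 24.0 to 24.3. Xaf1 was at 7.89 CPM in WT sham 2, with the others at 9.65 to 9.77. Adar was at 37.3 CPM in WT sham 3, with the others at 42.4 to 42.6.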

How the results depend on the processing

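No called change of a named member reversed under any alternative run, while some values that were not called changed sign, such as Rtp4 in JP2CR TAC (-0.20, and 0.06 without the 3 libraries with Xist). No scaling moved the median of all genes by over 0.1. Results were then counted for the members called in at least 1 main comparison, outside the fits that leave out 1 library. Of these, 1150 kept their side of the threshold, 18 lost a call and 12 gained one. A result that was called in neither run counts as kept. Calls gained by other members under these settings (Cmpk2, Rtp4, Oasl1, Oas1a and Oas3) are not in these numbers. Leaving out 1 library gave 16 to 19 members higher and 2 to 2 lower in WT TAC, 8 to 11 higher and 0 to 2 lower in JP2CR TAC, 0 to 2 higher and 0 to 0 lower in JP2CR TAC over WT TAC, 0 to 1 in each direction in JP2CR sham over WT sham, and 0 to 1 in each direction in the interaction. With upper-quartile factors, and with the replicate block, 1 member (Cmpk2) was lower in JP2CR TAC. In JP2CR TAC over WT TAC the members higher were 0 at an adjusted p under 0.01, 2 without the 3 libraries with Xist, 0 without the intermediate libraries and 0 without all 5. In JP2CR sham over WT sham 1 member was higher under DESeq2, and 1 was lower under DESeq2, limma voom, no low-count filter, without the libraries with Xist and without all 5. In the interaction 1 was higher under DESeq2, without the libraries with Xist and without all 5. The cause was not tested.

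The deviations of same-numbered libraries had correlations of -0.187 to 0.108 across groups, so the numbers are not taken to pair libraries. With the replicate block 9 members were higher in JP2CR TAC (Dhx58 lost, adjusted p = 0.0552) and 17 in WT TAC. Below about 1 CPM, as for Oas3, counts of a few reads limit what can be seen; Oas3 was called higher in WT TAC by DESeq2 (adjusted p = 0.0249) and with no filter (0.0180).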
